A study of Mus musculus with 9 samples.

Results

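The 10 genes described here encode secreted cytokines and growth factors of T cells, namely Il2, Il3, Il4, Il10, Il13, Il21, Ifng, Csf2, Lif and Osm. They were chosen by symbol and are 10 of the 23849 entries of the table of FPKM per gene and library (fragments relative to transcript length and to all mapped fragments), and each has 1 entry. The study sequenced poly-A RNA of mouse CD4+ T cells that carried more or, by label, less of the transcription factor Fosl2, in 3 groups of 3 libraries. All libraries came from naive cells (CD4+CD62LhighCD44low by sort), which were then activated through CD3 and CD28 with antibodies (anti-CD3 and anti-CD28) over 24 h.

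The group labelled Fosl2 Tg carried a Fosl2 transgene, and its promoter is not stated in the labels. The group labelled Fosl2 Ko carried floxed Fosl2 alleles with a Cre driven by Cd4 (Fosl2 fl/fl CD4-cre+), a driver that acts during T cell development in the thymus. Control libraries were wild type, with no mention of floxed alleles or Cre in their labels. The labels do not say if separate animals gave the 3 libraries of a group, and p-values therefore measure a spread between libraries that may be technical. Both comparisons with Control share the same 3 Control libraries.

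When a T cell receives signals through its antigen receptor and CD28, the factors NFAT, AP-1 and NF-kB switch on cytokine genes, and naive cells make mainly IL-2 at that time. Other cytokines such as IFN-gamma, IL-4, IL-10, IL-13 and IL-21 are made in quantity only after cells take up an effector program. AP-1 is a pair of proteins from the Fos and Jun families, to which Fosl2 belongs, and it binds DNA together with NFAT at several cytokine promoters. Cytokine transcripts are also short-lived, because proteins that bind AU-rich elements mark them for decay.

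Fosl2 had 30.9, 19.2 and 24.5 FPKM in the Fosl2 Tg libraries, 19.2, 17.8 and 17.1 FPKM in the libraries labelled Fosl2 Ko, and 7.77, 7.44 and 6.15 FPKM in Control. All 6 libraries of both modified genotypes lay above the 3 Control libraries, so the label Fosl2 Ko goes against the FPKM of its target, and its libraries are called by their label throughout. Fosl2 differed from Control by 1.65 on the log2(FPKM + 1) scale in Fosl2 Tg (limma adjusted p = 0.000749) and by 1.23 in the group labelled Fosl2 Ko (adjusted p = 0.00404 from limma). FPKM of a whole gene does not show which exons were read, so the loss of a floxed exon was not tested. Estimated depth was 31.6 to 56.8 M fragments per library (M, 10 to the power of 6). The 4 of 5 chosen markers of CD4 T cells that could be read summed to 688 to 932 FPKM in each library. Of the 2 CD8 T cell markers, Cd8a averaged 0.229 FPKM in Fosl2 Tg, 0.336 FPKM in the libraries labelled Fosl2 Ko and 0.425 FPKM in Control. Cd8b1 averaged 11.7, 6.63 and 11.8 FPKM in the same order, and was lower in the libraries labelled Fosl2 Ko than in Control (limma adjusted p = 0.00199). Fosl2 Tg library 1 stood apart from the other 2 Fosl2 Tg libraries, with a summed FPKM of 9.55 against 3.13 and 2.74 for 4 NK and innate lymphoid markers, 1.57 against 0.753 and 0.515 for 5 mast cell and basophil markers, and 1.24 against 0.705 and 0.604 for 5 myeloid markers. Most of each sum in library 1 came from 1 gene, Klrd1 at 8.65 FPKM, Ms4a2 at 1.51 FPKM and Itgam at 1.06 FPKM. The other mast cell, basophil and myeloid markers reached at most 0.149 FPKM (Fcer1g) in Fosl2 Tg. Of these markers Ncr1, Fcer1a, Mcpt8 and Cd14 were at 0 in all 9 libraries.

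To show the sequence on which NFAT and AP-1 could act, the 250 bases before the start of the gene are given for Il2 and Lif, the members that passed the test in Fosl2 Tg against Control, and for Ifng, which was highest in the libraries labelled Fosl2 Ko and lowest in Fosl2 Tg. Windows of 8 of the 10 members were found in RefSeq (GRCm38.p6, the assembly that UCSC calls mm10), and each is printed on the strand of the gene. The Il2 window is chr3:37125955-37126204 on the minus strand, the Lif window chr11:4257318-4257567 on the plus strand and the Ifng window chr10:118440796-118441045 on the plus strand. Capitals mark matches, on either strand, to the AP-1 motif TGANTCA or to the NFAT core GGAAA, which reads TTTCC on the other strand.
Il2: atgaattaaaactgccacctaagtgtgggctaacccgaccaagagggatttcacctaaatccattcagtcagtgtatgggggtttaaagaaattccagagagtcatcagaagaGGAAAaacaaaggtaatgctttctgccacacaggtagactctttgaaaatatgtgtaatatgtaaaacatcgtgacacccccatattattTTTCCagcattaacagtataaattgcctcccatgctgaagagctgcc
Lif: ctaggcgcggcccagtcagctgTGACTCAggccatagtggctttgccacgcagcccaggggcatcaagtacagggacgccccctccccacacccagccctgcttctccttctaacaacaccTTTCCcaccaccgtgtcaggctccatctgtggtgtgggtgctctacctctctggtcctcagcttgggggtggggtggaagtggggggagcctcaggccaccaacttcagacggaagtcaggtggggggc
Ifng: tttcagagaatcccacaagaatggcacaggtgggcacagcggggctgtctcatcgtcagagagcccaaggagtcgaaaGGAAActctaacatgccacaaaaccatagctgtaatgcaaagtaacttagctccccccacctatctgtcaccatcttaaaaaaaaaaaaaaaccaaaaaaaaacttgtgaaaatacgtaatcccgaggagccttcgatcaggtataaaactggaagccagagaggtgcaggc

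Among the members with a window, Lif alone held the AP-1 letters, as TGACTCA from base -228 to base -222 relative to the gene start. Of 32851 windows of all genes, 6.75% held that motif. The NFAT core was found in Il2 at -137 to -133 and at -47 to -43, in Ifng at -172 to -168 and in Lif at -129 to -125. It is a common word, present in 55.6% of all windows, and no capitals in this set mark overlapping matches. A match is a description of the letters in these windows and not a binding site measured here.

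IL-2 is the growth factor that activated T cells secrete and respond to, and Il2 (chromosome 3, 37120716 to 37125954) was the most abundant of the 10 transcripts in every library. It had 48.3, 77.0 and 62.1 FPKM in Fosl2 Tg, 108, 113 and 117 FPKM in the libraries labelled Fosl2 Ko, and 138, 172 and 169 FPKM in Control. The 3 groups did not overlap, with Fosl2 Tg lowest, the libraries labelled Fosl2 Ko in between and Control highest. Il2 averaged 62.5 ± 14.4 FPKM in Fosl2 Tg, 113 ± 4.58 FPKM in the libraries labelled Fosl2 Ko and 160 ± 18.9 FPKM in Control (SD, n = 3 each). Among 23033 genes other than small RNA genes, Il2 ranked 1227 by mean FPKM in Fosl2 Tg, 651 in the libraries labelled Fosl2 Ko and 453 in Control.

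In Fosl2 Tg, Il2 fell to 0.391 of its Control FPKM, a difference of -1.36 ± 0.16 on the log2(FPKM + 1) scale (SE, limma adjusted p = 0.00145, 95% interval -1.72 to -1.0). In bulk RNA, fewer cells that transcribe a gene and less RNA per cell cannot be told apart. Without Fosl2 Tg library 1 the difference was -1.19 (limma adjusted p = 0.00131). Against the libraries labelled Fosl2 Ko, Il2 was also lower in Fosl2 Tg, with a difference of -0.87 ± 0.16 (limma adjusted p = 0.00467, 95% interval -1.23 to -0.51).

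For the libraries labelled Fosl2 Ko against Control the difference in Il2 was -0.49 ± 0.16, which did not pass the test (limma adjusted p = 0.137), although the unadjusted 95% interval ran from -0.85 to -0.13. It passed without Fosl2 Tg library 1 (limma adjusted p = 0.0267), and with only the 6 libraries compared (limma adjusted p = 0.0287). In the authors' deposited table, from a separate normalization, Il2 is given as 74.3 FPKM for Fosl2 Tg, 131 for Fosl2 Ko and 186 for Control, with a log2 ratio to Control of -1.32 and -0.50, each with q = 0.000503. The exact two-sided permutation test gave p = 0.1 for Il2 in each of the 3 comparisons, the smallest p that 3 against 3 libraries allow.

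**Figure D1:**
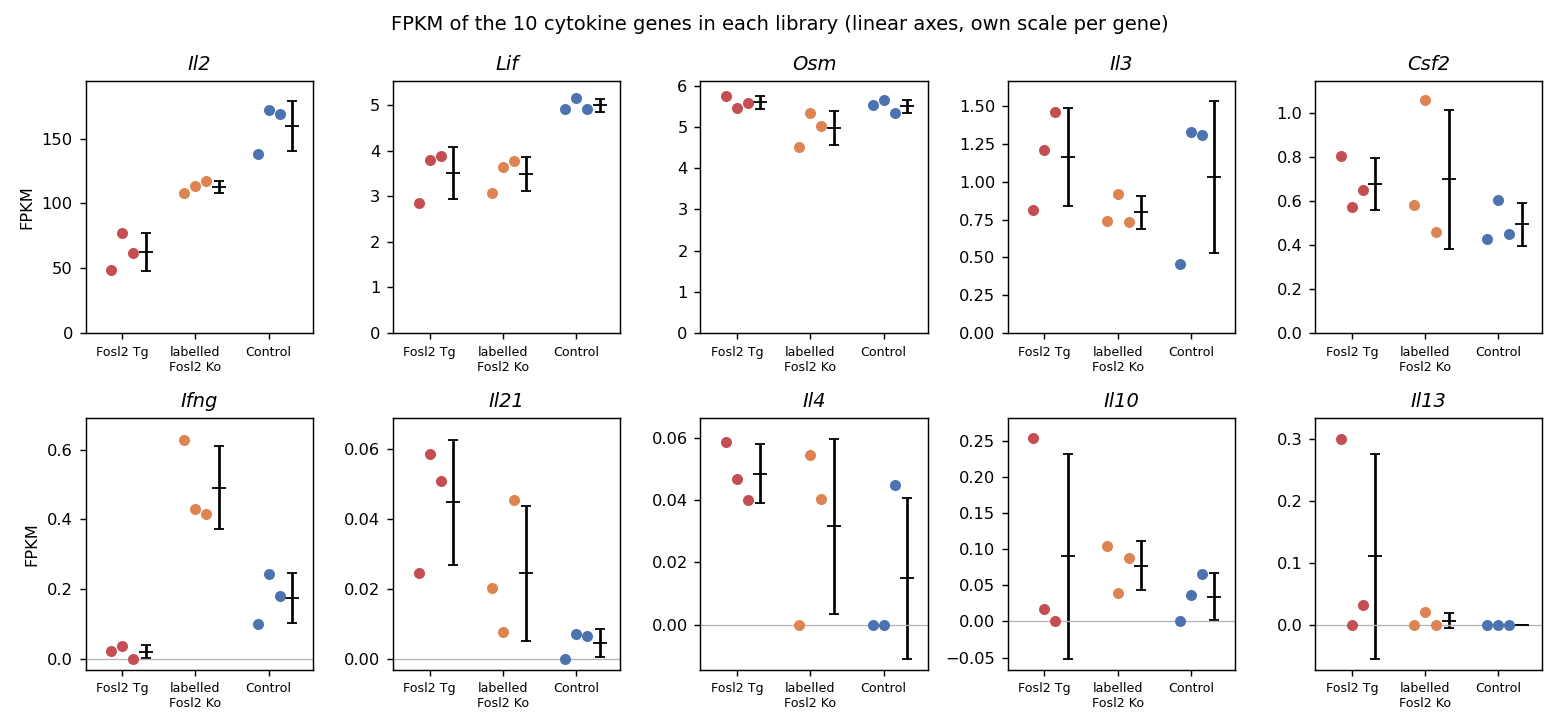
FPKM of each of the 10 cytokine genes (vertical axes, linear, a different scale for each gene) in the 3 Fosl2 Tg libraries, the 3 libraries labelled Fosl2 Ko and the 3 Control libraries; points are libraries and the black mark with bars beside them is the mean ± SD. Il2 lay at 48.3 to 77.0 FPKM in Fosl2 Tg, at 108 to 117 in the libraries labelled Fosl2 Ko and at 138 to 172 in Control, while Il4, Il10, Il13 and Il21 stayed below 0.4 FPKM everywhere.

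The order of the levels was the same at the top in all 3 groups, with Il2 highest, then Osm, then Lif, the 3 genes that reached a mean of 1 FPKM over all libraries. Osm and Lif lay far below Il2, at 2.86 to 5.76 FPKM over the 9 libraries. In Control the ranges of Osm and Lif were 5.34 to 5.65 FPKM and 4.91 to 5.15 FPKM, which did not overlap. Il3 and Csf2 came next in each group; their ranges did not overlap in Fosl2 Tg, where Il3 was the higher, and overlapped in the libraries labelled Fosl2 Ko and in Control. The sum over the 10 genes was 59.2 to 88.2 FPKM in Fosl2 Tg, 118 to 128 FPKM in the libraries labelled Fosl2 Ko and 149 to 185 FPKM in Control. Il2 alone made up 81.6% to 87.3% of that sum in Fosl2 Tg, 90.8% to 91.8% in the libraries labelled Fosl2 Ko and 92.3% to 93.2% in Control. The other 9 genes together summed to 10.9 to 11.7 FPKM in Fosl2 Tg, 9.67 to 11.5 FPKM among the libraries labelled Fosl2 Ko and 11.4 to 13.0 FPKM in Control.

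LIF is a cytokine of the IL-6 family that signals through its receptor LIFR and the shared chain gp130, and Lif lies on chromosome 11 (4257568 to 4272514). It had 2.86, 3.79 and 3.88 FPKM in Fosl2 Tg, 3.07, 3.65 and 3.77 FPKM in the libraries labelled Fosl2 Ko, and 4.92, 5.15 and 4.91 FPKM in Control. Every library of both modified genotypes lay below every Control library, and the 2 modified genotypes overlapped. Lif fell in Fosl2 Tg against Control, with a difference of -0.42 ± 0.10 on the log2(FPKM + 1) scale (SE, limma adjusted p = 0.0222, 95% interval -0.65 to -0.19). Lif no longer passed without Control library 2 (limma adjusted p = 0.0801), without Control library 3 (limma adjusted p = 0.0616) and with only the 6 libraries compared (limma adjusted p = 0.0584).

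In the libraries labelled Fosl2 Ko the difference of Lif from Control was also -0.42 ± 0.10 (limma adjusted p = 0.0557, 95% interval -0.65 to -0.19), just short of the threshold of 0.05. It passed without Fosl2 Tg library 1 (limma adjusted p = 0.00795). Fosl2 Tg and the libraries labelled Fosl2 Ko averaged 3.51 ± 0.57 and 3.50 ± 0.37 FPKM of Lif (SD, n = 3 each), with a 95% interval of the difference from -0.23 to 0.23. The authors' deposited table gives Lif log2 ratios to Control of -0.48 for Fosl2 Tg (q = 0.00291) and -0.51 for Fosl2 Ko (q = 0.000503).

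Oncostatin M is the neighbour of LIF in family and in place, and Osm (chromosome 11, 4236785 to 4241026) ends 16.5 kb from Lif. It had 5.76, 5.45 and 5.59 FPKM in Fosl2 Tg, 4.53, 5.34 and 5.03 FPKM in the libraries labelled Fosl2 Ko, and 5.53, 5.65 and 5.34 FPKM in Control. Fosl2 Tg overlapped Control, and the libraries labelled Fosl2 Ko reached below both. The difference of Fosl2 Tg from Control was 0.02 ± 0.06 (limma adjusted p = 0.796, 95% interval -0.11 to 0.15), and that of the libraries labelled Fosl2 Ko was -0.13 ± 0.06 (limma adjusted p = 0.289). Between Fosl2 Tg and the libraries labelled Fosl2 Ko the groups did not overlap, with a difference of 0.15 ± 0.06 that did not pass the test (limma adjusted p = 0.0749, 95% interval 0.01 to 0.28).

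Only these 3 of the 10 members had a mean of at least 1 FPKM over the 9 libraries and entered the test across all genes. Against Control, 2 of the 3 were lower in Fosl2 Tg (Il2 and Lif) and 0 higher, beside 23.6% of the 10340 genes tested that passed in either direction and, by direction, 8.53% that were higher and 15.1% that were lower. Of all genes tested 882 were higher and 1558 lower in Fosl2 Tg, a split that became 1100 and 1265 with median-of-ratios scaling, 1062 and 1271 with quantile normalization and 1418 and 1054 with small RNA genes left out, and Il2 and Lif were lower under each. In the libraries labelled Fosl2 Ko against Control 0 of the 3 passed in limma, beside 4.46% of all genes, 2.14% higher and 2.32% lower (221 and 240 genes, or 285 and 171 with small RNA genes left out). At an unadjusted p under 0.05 there were 2 members lower, Il2 and Lif, beside 10.9% of all genes lower (18.8% in either direction). The fit with array weights called all 3 members lower, beside 17.0% of all genes lower (27.4% in either direction). In Fosl2 Tg against libraries labelled Fosl2 Ko 1 of the 3 was lower (Il2), beside 38.1% of all genes in either direction, 17.4% higher and 20.7% lower. The median difference of the 3 members was -0.42, -0.42 and -0.00 in these comparisons, against -0.03, -0.01 and -0.03 for all genes tested.

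**Figure D2:**
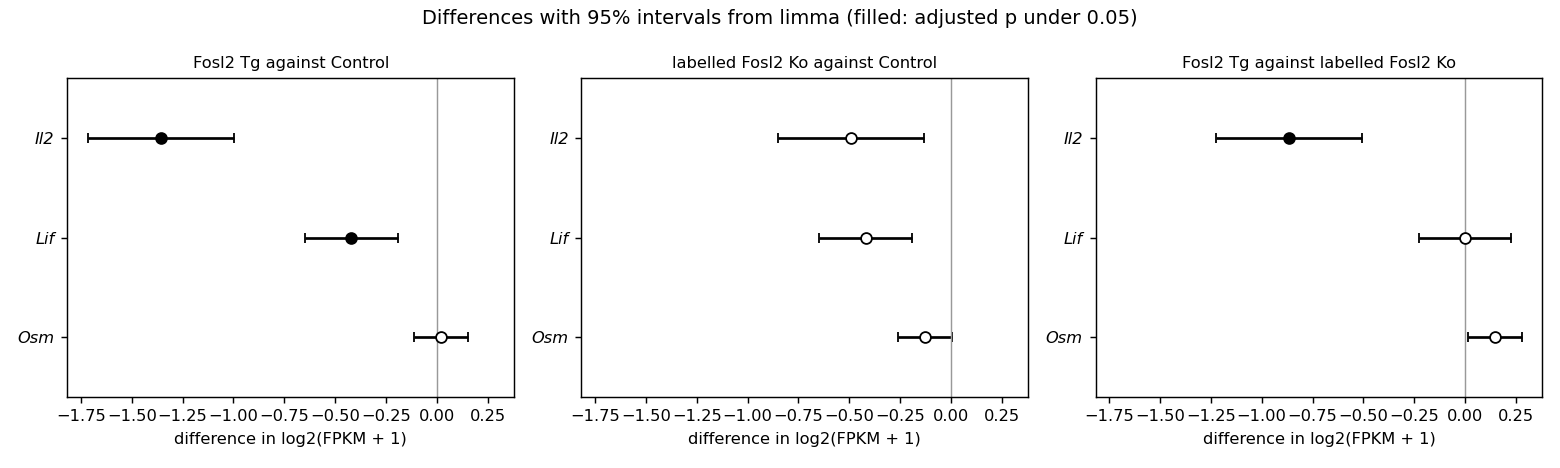
Difference in log2(FPKM + 1) (horizontal axes) of Il2, Lif and Osm in Fosl2 Tg against Control, in the libraries labelled Fosl2 Ko against Control and in Fosl2 Tg against libraries labelled Fosl2 Ko; circles are limma estimates, bars unadjusted 95% intervals, and filled circles have an adjusted p under 0.05. Il2 sat at -1.36, -0.49 and -0.87 in the 3 panels, Lif at -0.42, -0.42 and -0.00, and Osm at 0.02, -0.13 and 0.15.

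The remaining 7 members averaged under 1 FPKM over the 9 libraries, Il3 only just, at 0.998 FPKM. At such levels FPKM takes steps of single fragments, from which the fragments per library were estimated. The steps were less clear for Il3 and Csf2, with estimates up to 0.379 and 0.108 fragments from a whole number. Intervals on ratios of these fragments cover counting error only, not the spread between libraries.

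IFN-gamma is the hallmark cytokine of Th1 cells, and the level of Ifng (chromosome 10, 118441047 to 118445892) was below Control in Fosl2 Tg and above it in the libraries labelled Fosl2 Ko. It had 0.0231, 0.0367 and 0 FPKM in Fosl2 Tg, 0.627, 0.429 and 0.414 FPKM in the libraries labelled Fosl2 Ko, and 0.0988, 0.242 and 0.179 FPKM in Control. These correspond to 1, 2 and 0 fragments in Fosl2 Tg, 22, 20 and 26 among the libraries labelled Fosl2 Ko, and 5, 12 and 10 in Control. No 2 groups overlapped, with Fosl2 Tg lowest and the libraries labelled Fosl2 Ko highest. Scaled to depth, the Fosl2 Tg libraries held 0.108 of the Control rate of Ifng fragments (95% exact counting interval 0.0209 to 0.351), and the libraries labelled Fosl2 Ko held 2.72 times that rate (1.72 to 4.42).

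Since Ifng lay under 1 FPKM, it could be tested only in a fit of all 17397 genes above 0 in at least 1 library. There the difference was -0.54 ± 0.06 on the log2(FPKM + 1) scale in Fosl2 Tg against libraries labelled Fosl2 Ko (adjusted p = 0.00105 from limma, 24.8% of genes called), and it passed with any 1 of the 9 libraries left out. Against Control the difference was 0.34 ± 0.06 among the libraries labelled Fosl2 Ko (adjusted p = 0.0274 from limma, 3.40% of genes called) and -0.20 ± 0.06 in Fosl2 Tg, which did not pass (limma adjusted p = 0.0737, 12.3% of genes called). The call of the libraries labelled Fosl2 Ko held in only 2 of the 9 fits with a library left out. It was lost without Control library 1, 2 or 3 (adjusted p = 0.0800, 0.0521 and 0.0880), without Fosl2 Tg library 2 or 3 (0.0552 and 0.0546), and without library 2 or 3 labelled Fosl2 Ko (0.0671 and 0.0530). In Fosl2 Tg the difference from Control passed only without library 1 labelled Fosl2 Ko (adjusted p = 0.0389). The authors' deposited table gives Ifng a log2 ratio to Control of 1.505 for Fosl2 Ko (q = 0.00326) and no test for Fosl2 Tg.

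Genes of effector, memory and NK cells are given here beside Ifng. Eomes, a T-box factor that drives Ifng in effector and NK cells, had 0.773 ± 0.149 FPKM in Fosl2 Tg, 11.04 ± 1.72 FPKM in the libraries labelled Fosl2 Ko and 3.84 ± 0.312 FPKM in Control (SD, n = 3 each). The 4 NK and innate lymphoid markers, Eomes among them, summed to 2.74 to 9.55 FPKM in Fosl2 Tg, 10.0 to 13.3 FPKM among the libraries labelled Fosl2 Ko and 4.57 to 5.68 FPKM in Control, with Ncr1 at 0 throughout. Klrd1, an NK receptor chain in the same list, ran the other way, at a mean of 4.37 FPKM in Fosl2 Tg (2.14 to 8.65, the highest in library 1), 0.378 FPKM among the libraries labelled Fosl2 Ko and 1.39 FPKM in Control. It was higher in Fosl2 Tg than in the libraries labelled Fosl2 Ko (1.75 ± 0.38, adjusted p = 0.00952 from limma) and passed in neither comparison with Control. The 5 memory and effector markers summed to 82.1 to 104 FPKM in Fosl2 Tg, 110 to 118 FPKM in the libraries labelled Fosl2 Ko and 108 to 120 FPKM in Control. Cd44, the surface protein by which the sort kept naive cells, averaged 13.4 FPKM in Fosl2 Tg, 29.7 FPKM among the libraries labelled Fosl2 Ko and 19.4 FPKM in Control. The part of cell composition in the levels of Ifng was not tested.

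IL-21 is the cytokine by which helper T cells support B cells, and Il21 (chromosome 3, 37222759 to 37232618) lies 96.8 kb from Il2. It had 0.0246, 0.0587 and 0.0509 FPKM in Fosl2 Tg, 0.0204, 0.00761 and 0.0454 FPKM in the libraries labelled Fosl2 Ko, and 0, 0.00716 and 0.00639 FPKM in Control. The estimated fragments were 3, 9 and 9 in Fosl2 Tg, 2, 1 and 8 among the libraries labelled Fosl2 Ko, and 0, 1 and 1 in Control. Fosl2 Tg lay above Control without overlap and overlapped the libraries labelled Fosl2 Ko. Library 2 labelled Fosl2 Ko held 1 fragment, as did Control libraries 2 and 3, so in fragments those groups overlapped, and the gap between them in FPKM is that of 1 fragment at different depths. The fragment rate was 10.2 times that of Control in Fosl2 Tg (95% exact counting interval 2.49 to 89.7, 21 fragments against 2) and 5.94 times in the libraries labelled Fosl2 Ko (1.30 to 55.2, 11 fragments against 2). In the fit of all genes above 0 neither difference passed, at 0.06 ± 0.02 in Fosl2 Tg (limma adjusted p = 0.0610) and 0.03 ± 0.02 among the libraries labelled Fosl2 Ko (adjusted p = 0.476 from limma). Without Fosl2 Tg library 1 the difference of Fosl2 Tg passed (adjusted p = 0.0334).

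The cytokines of Th2 cells, IL-4 and IL-13, are encoded beside each other on chromosome 11, and both were at or near 0. Il4 had 1 estimated fragment in each of the Fosl2 Tg libraries, 0, 1 and 1 among the libraries labelled Fosl2 Ko, and 0, 0 and 1 in Control, so no difference was detectable at this depth. Il13 had 13, 0 and 2 fragments in Fosl2 Tg, 0, 1 and 0 among the libraries labelled Fosl2 Ko, and none in Control. The 13 fragments, or 0.301 FPKM, came from Fosl2 Tg library 1. This library had the highest summed mast cell, basophil and myeloid markers, sums that came mostly from Ms4a2 and Itgam. IL-10, an anti-inflammatory cytokine, showed the same library on top, with 12, 1 and 0 fragments of Il10 in Fosl2 Tg, 4, 2 and 6 among the libraries labelled Fosl2 Ko, and 0, 2 and 4 in Control. Neither gene passed in the fit of all genes above 0 (limma adjusted p = 0.311 for Il13 and 0.606 for Il10 in Fosl2 Tg against Control), and the groups overlapped. The part of other cell types in the values of Fosl2 Tg library 1 was not tested.

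**Figure D3:**
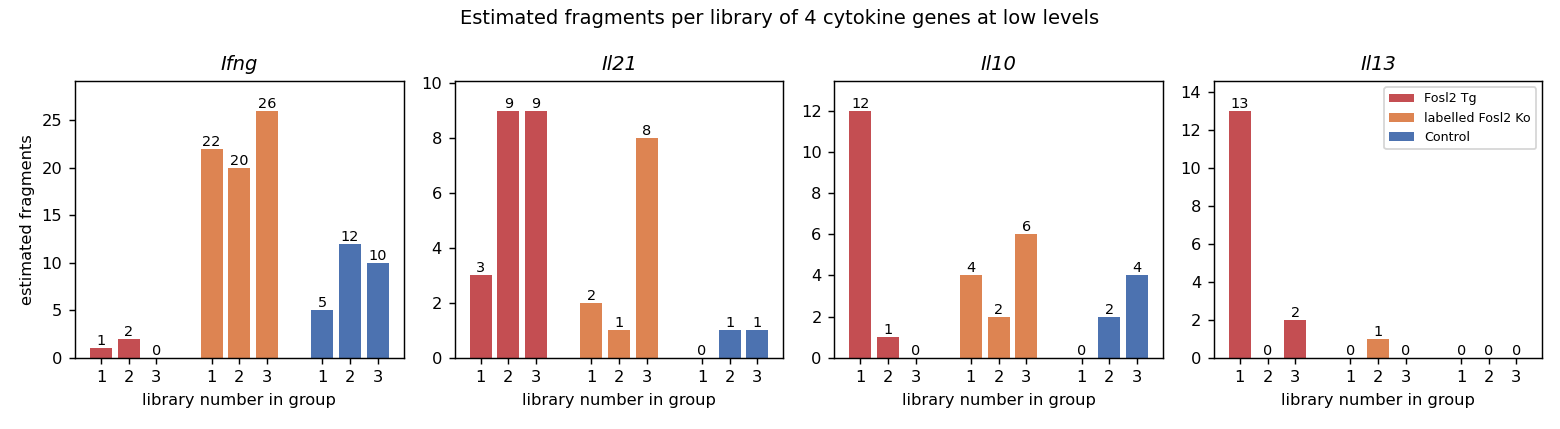
Estimated fragments (vertical axes, linear from 0) of Ifng, Il21, Il10 and Il13 in each library, with the 3 Fosl2 Tg libraries at the left, the 3 libraries labelled Fosl2 Ko in the middle and the 3 Control libraries at the right; numbers over the bars are the fragments. Ifng was at 0 to 2 in Fosl2 Tg, 20 to 26 in the libraries labelled Fosl2 Ko and 5 to 12 in Control, and most fragments of Il10 and Il13 in Fosl2 Tg came from library 1.

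The growth factors IL-3 and GM-CSF act on blood cell precursors and myeloid cells, and their genes also lie side by side on chromosome 11 (Csf2 at 54247270 to 54249899 and Il3 at 54265085 to 54267279). Il3 had 0.816, 1.21 and 1.46 FPKM in Fosl2 Tg, 0.741, 0.921 and 0.733 FPKM in the libraries labelled Fosl2 Ko, and 0.454, 1.33 and 1.31 FPKM in Control. Control library 1 was the lowest of the 9 and the groups overlapped in every comparison with Control. Csf2 had 0.807, 0.575 and 0.650 FPKM in Fosl2 Tg, 0.582, 1.06 and 0.460 FPKM in the libraries labelled Fosl2 Ko, and 0.428, 0.607 and 0.451 FPKM in Control. Its groups overlapped in every comparison, with library 2 labelled Fosl2 Ko the highest of the 9. Neither passed in the fit of all genes above 0, where the differences of Fosl2 Tg from Control were 0.11 ± 0.19 for Il3 (limma adjusted p = 0.735) and 0.17 ± 0.12 for Csf2 (limma adjusted p = 0.406).

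Counted over all 10 members, the groups did not overlap for 4 genes in Fosl2 Tg against Control (Il2, Lif, Ifng and Il21), beside 34.5% of the 17397 genes above 0. In FPKM they did not overlap for the same 4 genes in the libraries labelled Fosl2 Ko against Control, beside 25.7% of genes, although Il21 did overlap there in fragments. In Fosl2 Tg against libraries labelled Fosl2 Ko 3 genes did not overlap (Il2, Ifng and Osm), beside 45.5% of genes. The counts of members are to be read against these shares, and they single out no property of the 10 genes as a set.

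The genes whose profile over the 9 libraries was most like that of each tested member were found as the root mean square difference of centred log2(FPKM + 1) values among 9395 tested genes. For Il2 they were Ctla4, an inhibitory receptor of activated and regulatory T cells (0.164), the mitotic kinase gene Cdk1 (0.174) and Aurkb, a kinase of chromosome segregation (0.175), where the profile of Il2 itself had a root mean square of 0.590. Ctla4 averaged 27.0 ± 7.37 FPKM in Fosl2 Tg, 48.9 ± 6.77 FPKM in the libraries labelled Fosl2 Ko and 58.3 ± 1.96 FPKM in Control (SD, n = 3 each), in the same order of groups as Il2. For Lif they were Nenf (0.0763), the DNA repair gene Xrcc2 (0.0796) and Ncf1, a subunit of the phagocyte oxidase (0.0799), and for Osm they were Tia1, an RNA-binding protein (0.0326), Gorab (0.0355) and Mmaa (0.0364). The profile of Osm itself had a root mean square of only 0.0839, and its median difference from the 9395 genes was 0.154. The small differences for Osm therefore do not mean a closer likeness than those for Il2. Lif and Osm, although neighbours, were about as far from each other (0.212) as Lif was from a flat profile (0.225).

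**Figure D4:**
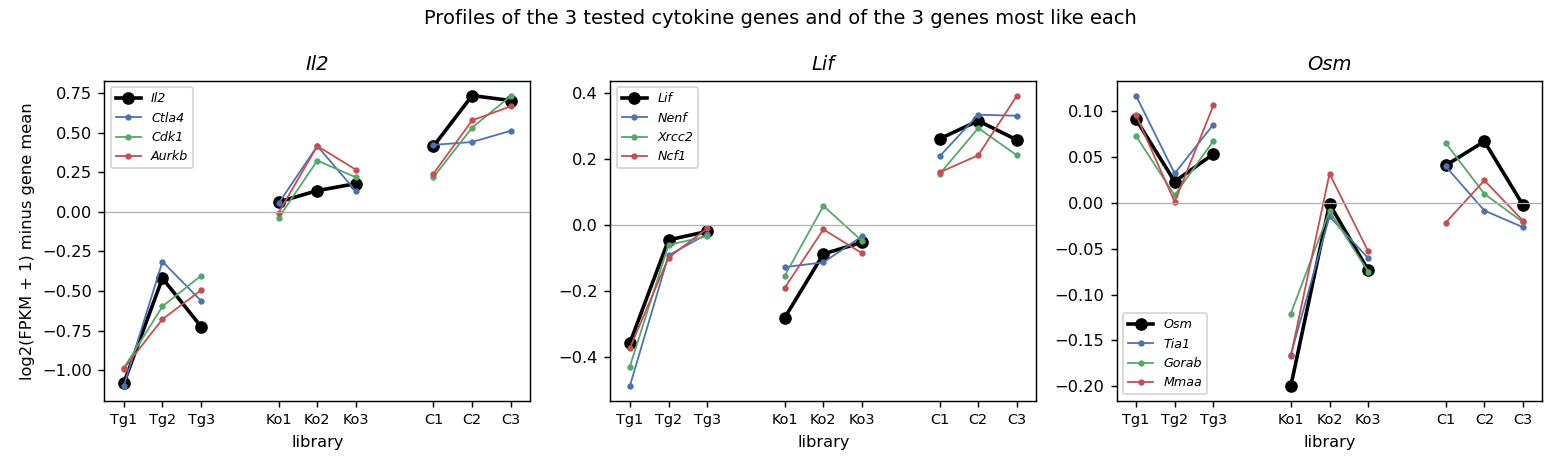
Centred log2(FPKM + 1) (vertical axes, value minus the mean of the gene) in each library for Il2, Lif and Osm (black) and for the 3 genes most like each (coloured); Tg, Ko and C with a number stand for the Fosl2 Tg libraries, the libraries labelled Fosl2 Ko and the Control libraries. The black line of Il2 is lowest in Fosl2 Tg library 1 and highest in the Control libraries, and the axis of Osm spans a much smaller range than that of Il2.

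The level of regulatory T cell markers differed between the groups as well. The 4 markers Foxp3, Ikzf2, Il2ra and Ctla4 summed to 77.3 to 116 FPKM in Fosl2 Tg, 175 to 194 FPKM in the libraries labelled Fosl2 Ko and 157 to 162 FPKM in Control. Most of each sum came from Il2ra and Ctla4. Il2ra averaged 72.1 FPKM in Fosl2 Tg, 127 FPKM in the libraries labelled Fosl2 Ko and 97.5 FPKM in Control. Ctla4 averaged 27.0, 48.9 and 58.3 FPKM in the same order of groups, so unlike Foxp3 it was highest in Control. Ikzf2 averaged 0.168, 1.31 and 0.442 FPKM. Of the 3 that were tested, 3 were lower in Fosl2 Tg against Control, beside 15.1% of all genes tested. In the libraries labelled Fosl2 Ko against Control 1 (Foxp3) was higher, beside 2.14% of all genes, and 0 lower. Foxp3, the factor that defines these cells and represses Il2, averaged 0.391 ± 0.164 FPKM in Fosl2 Tg, 6.31 ± 0.150 FPKM in the libraries labelled Fosl2 Ko and 2.55 ± 0.422 FPKM in Control (SD, n = 3 each). Il2 and Foxp3 were both lowest in Fosl2 Tg, while in the libraries labelled Fosl2 Ko Foxp3 was above Control and the mean of Il2 below it. The part of regulatory T cells in the level of Il2 was not tested.

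Receptors for the 10 cytokines form a list of 18 chains, of which 12 were tested, and in Fosl2 Tg against Control 3 were higher and 2 lower. Counts here and in the lists that follow are to be read against the shares of all tested genes that passed. These shares were 23.6% in Fosl2 Tg against Control, 4.46% in the libraries labelled Fosl2 Ko against Control and 38.1% in Fosl2 Tg against libraries labelled Fosl2 Ko. Without a library the numbers of all 10340 tested genes that passed moved too. They ran from 879 to 2529, 176 to 1233 and 2170 to 4100 in the same order of comparisons. In Fosl2 Tg against Control they were 879 and 1142 without Control library 2 and 3. List counts without a library are to be read against those numbers, not the shares above. Il2ra, the high-affinity chain for IL-2, averaged 72.1 ± 12.7 FPKM in Fosl2 Tg against 97.5 ± 4.0 FPKM in Control (limma adjusted p = 0.0292), and Il2rg, the chain shared by the receptors for IL-2, IL-4 and IL-21, averaged 388 ± 7.26 FPKM in Fosl2 Tg against 346 ± 8.06 FPKM in Control (limma adjusted p = 0.0453). Il10ra, which binds IL-10, was higher in Fosl2 Tg at 5.30 ± 1.61 FPKM, against 2.53 ± 0.675 FPKM in Control (limma adjusted p = 0.0172). Of these receptor chains, 1 was lower and 0 higher without Control library 2 or 3, 1 higher and 1 lower without any 1 library labelled Fosl2 Ko, and 1 higher and 2 lower without Fosl2 Tg library 1 or 3. With quantile normalization 2 were higher and 1 lower. The median difference of the 12 chains was -0.06 in Fosl2 Tg and -0.03 among the libraries labelled Fosl2 Ko, against -0.03 and -0.01 for all genes.

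Il21r, the receptor of IL-21, differed from Control in opposite directions in the modified genotypes. It averaged 38.6 ± 2.74 FPKM in Fosl2 Tg, 76.5 ± 4.14 FPKM in the libraries labelled Fosl2 Ko and 48.3 ± 0.964 FPKM in Control (SD, n = 3 each), which made it lower in Fosl2 Tg (-0.32 ± 0.06, limma adjusted p = 0.0106) and the 1 chain higher among the libraries labelled Fosl2 Ko (0.65 ± 0.06, adjusted p = 0.00117 from limma). In that comparison 3 chains were higher and 1 lower without Fosl2 Tg library 1, and 2 were higher with small RNA genes left out. Between Fosl2 Tg and the libraries labelled Fosl2 Ko 2 chains were higher and 3 lower. The receptor chains that bind LIF and oncostatin M were hardly present in these cells, with Lifr at a mean of 0.0882 FPKM in Fosl2 Tg, 0.0675 in the libraries labelled Fosl2 Ko and 0.0816 in Control, and Osmr at 0 in all groups, whereas Il6st, which encodes gp130, averaged 35.1 FPKM in Fosl2 Tg, 27.7 among the libraries labelled Fosl2 Ko and 27.3 in Control.

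The list of 37 other secreted cytokines had only 5 tested genes, and the libraries labelled Fosl2 Ko were lower than Control in 3 of them and higher in 0. Tnf, the inflammatory cytokine TNF, averaged 56.3 ± 6.33 FPKM in those libraries against 81.2 ± 6.43 FPKM in Control (limma adjusted p = 0.0153), Lta, its relative lymphotoxin alpha, 45.3 ± 0.159 against 72.6 ± 3.77 FPKM (limma adjusted p = 0.0120), and Tgfb1 62.7 ± 2.12 against 78.8 ± 1.97 FPKM (limma adjusted p = 0.00659). Without Control library 2, or without library 2 or 3 labelled Fosl2 Ko, 1 of the 5 passed, as lower. For Fosl2 Tg against Control 1 of the 5 passed, Il16, which attracts CD4+ cells, at 41.0 ± 6.32 FPKM in Fosl2 Tg against 29.1 ± 1.82 FPKM in Control (limma adjusted p = 0.0145), and 0 passed without Control library 2 or 3. Tnf and Lta differed from Control by 0.06 and -0.12 in Fosl2 Tg and did not pass (limma adjusted p = 0.599 and 0.403). The means of Tnf, 84.8 FPKM in Fosl2 Tg, 56.3 FPKM among the libraries labelled Fosl2 Ko and 81.2 FPKM in Control, were in another order than those of Il2. All 5 were higher in Fosl2 Tg than in the libraries labelled Fosl2 Ko, and 4 to 5 passed without each library. Of all genes tested 17.4% were higher in that comparison (38.1% in either direction). The median difference of the 5 genes from Control was 0.06 in Fosl2 Tg and -0.32 among the libraries labelled Fosl2 Ko.

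Factors that act on cytokine genes make up a list of 46, of which 40 were tested. In Fosl2 Tg against Control 7 were higher and 8 lower, the lower ones including Eomes (-1.45 ± 0.11, limma adjusted p = 0.000278) and the AP-1 partners Jun (2.35 ± 0.0763 FPKM in Fosl2 Tg against 4.10 ± 0.357 FPKM in Control, limma adjusted p = 0.00234) and Junb (91.0 ± 3.17 against 112 ± 4.46 FPKM, limma adjusted p = 0.00521). Id2, which restrains E proteins, was higher (26.3 ± 3.03 FPKM in Fosl2 Tg against 18.2 ± 1.73 FPKM in Control, limma adjusted p = 0.00821). The counts were 4 higher and 5 lower without Control library 2 and 2 and 7 without Control library 3. In the libraries labelled Fosl2 Ko against Control 4 were higher and 3 lower, the higher ones including Eomes (1.31 ± 0.11, limma adjusted p = 0.000589) and Gata3, the Th2 factor (6.48 ± 0.354 FPKM in those libraries against 4.81 ± 0.280 FPKM in Control, limma adjusted p = 0.0195). Rela, a subunit of NF-kB, was lower there (41.7 ± 0.718 FPKM against 50.9 ± 2.03 FPKM in Control, limma adjusted p = 0.0168).

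That count for the libraries labelled Fosl2 Ko was 7 higher and 6 lower without Fosl2 Tg library 1, 2 and 2 without Control library 1, 1 and 2 without Control library 2 or 3, and 1 and 1 without any 1 library labelled Fosl2 Ko. All genes called numbered 1233 without Fosl2 Tg library 1 and 272, 176 and 313 without Control library 1, 2 and 3. They numbered 191, 178 and 210 without library 1, 2 and 3 labelled Fosl2 Ko. Between Fosl2 Tg and the libraries labelled Fosl2 Ko 12 factors were higher and 10 lower, or 7 and 6 without library 2 labelled Fosl2 Ko. The median difference of the 40 factors from Control was 0.04 in Fosl2 Tg and 0.02 among the libraries labelled Fosl2 Ko.

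Proteins that control the decay or translation of cytokine transcripts gave 15 tested genes of 17. Relative to Control, 4 were higher and 2 lower in Fosl2 Tg, with Zfp36l2 (88.7 ± 10.6 FPKM in Fosl2 Tg against 60.6 ± 3.07 FPKM in Control, limma adjusted p = 0.00428) and Zfp36l1 (144 ± 11.6 against 114 ± 6.10 FPKM, limma adjusted p = 0.0216), which bind AU-rich elements and promote decay, higher. Arid5a, which protects cytokine transcripts, was higher as well (10.4 ± 2.19 FPKM in Fosl2 Tg against 7.08 ± 0.709 FPKM in Control, limma adjusted p = 0.0276), and Khsrp, which promotes decay, was lower (71.4 ± 2.46 against 82.4 ± 3.25 FPKM, limma adjusted p = 0.0217). The counts were 1 and 0 without Control library 2 and 1 and 1 without Control library 3. In the libraries labelled Fosl2 Ko against Control 0 of the 15 passed in limma. At an unadjusted p under 0.05 there were 3, beside 18.8% of all genes. Without Fosl2 Tg library 1, 0 were higher and 2 lower at the adjusted threshold. Between Fosl2 Tg and the libraries labelled Fosl2 Ko 3 were higher and 2 lower. The median difference of the 15 genes from Control was -0.06 in Fosl2 Tg and -0.02 among the libraries labelled Fosl2 Ko.

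Genes that cytokine signals switch on, through STAT factors, were all 11 tested. Compared with Control, 4 were higher and 1 lower in Fosl2 Tg, and among the libraries labelled Fosl2 Ko against Control 1 was higher and 2 lower. Pim1, a kinase gene induced through STAT5, averaged 127 ± 2.80 FPKM in Fosl2 Tg, 39.1 ± 4.74 FPKM in the libraries labelled Fosl2 Ko and 74.7 ± 3.95 FPKM in Control (SD, n = 3 each), and it passed in both comparisons (limma adjusted p = 0.00134 and 0.00109). Its order of groups was not that of Il2. The median difference of the 11 genes from Control was 0.34 in Fosl2 Tg and -0.17 among the libraries labelled Fosl2 Ko. Irf8, a factor induced by IFN-gamma, averaged 13.6 ± 2.23 FPKM in Fosl2 Tg, 44.4 ± 3.66 FPKM among the libraries labelled Fosl2 Ko and 22.6 ± 1.74 FPKM in Control and passed in both (limma adjusted p = 0.00550 and 0.00365), and its order of groups was that of Ifng. Other genes of the list induced by IFN-gamma did not share that order. Socs1, a feedback inhibitor of JAK kinases, averaged 20.3 FPKM in Fosl2 Tg, 13.4 FPKM among the libraries labelled Fosl2 Ko and 15.3 FPKM in Control, and was higher in Fosl2 Tg than in Control (limma adjusted p = 0.0451). Gbp2, a guanylate-binding protein, averaged 44.8 FPKM in Fosl2 Tg, 38.2 FPKM among the libraries labelled Fosl2 Ko and 35.8 FPKM in Control and did not pass (limma adjusted p = 0.141 and 0.811). Gzmb and Bcl2 were higher in Fosl2 Tg (4.52 ± 1.51 against 1.15 ± 0.349 FPKM and 21.5 ± 1.08 against 13.8 ± 2.49 FPKM in Control), and Cish, a feedback inhibitor of STAT5, was lower in the libraries labelled Fosl2 Ko (28.3 ± 1.42 against 40.3 ± 1.50 FPKM in Control, limma adjusted p = 0.0369).

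Within 200 kb of a member lay 46 other genes, of which 23 were tested. Of these, in Fosl2 Tg against Control, 2 were higher and 5 lower, beside 23.6% of all genes tested in either direction. In the libraries labelled Fosl2 Ko against Control 0 passed in limma, beside 4.46% of all genes. At an unadjusted p under 0.05 there were 4, beside 18.8% of all genes. Fgf2, near Il21, averaged 1.19 FPKM in Fosl2 Tg against 2.16 FPKM in Control (limma adjusted p = 0.00890), Pdlim4, near Csf2 and Il3, 1.62 against 4.02 FPKM (limma adjusted p = 0.0126), Uqcrq, near Il4, 185 against 243 FPKM (limma adjusted p = 0.0135), and Mapkapk2, near Il10, 52.8 against 69.8 FPKM (limma adjusted p = 0.00145). Gatsl3, near Lif and Osm, was higher at 6.71 FPKM in Fosl2 Tg against 3.56 FPKM in Control (limma adjusted p = 0.00685). The other 2 were 4932438A13Rik, higher, and a gene whose symbol spreadsheet software had turned into a date, lower. These counts were 1 higher and 3 lower without Control library 2. For the libraries labelled Fosl2 Ko they were 1 and 2 without Fosl2 Tg library 1 and 0 and 1 without Fosl2 Tg library 3. Between Fosl2 Tg and the libraries labelled Fosl2 Ko 6 were higher and 9 lower, beside 17.4% of all genes tested higher and 20.7% lower. The counts of neighbours there became 4 and 3, 3 and 2, and 3 and 3 without library 1, 2 or 3 labelled Fosl2 Ko.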

How the data were processed

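RNA-seq of 9 libraries in 3 groups (Fosl2 Tg, labelled Fosl2 Ko, Control; 3 each) was analysed from the deposited tables. Per the submitters' processing notes the tools were TopHat, Cufflinks and Cuffdiff with build mm10; no version, setting, strand option or annotation is given in the sources used here. Per the file headers the authors deposited 1 FPKM value for each gene in each library, and every library column matched a sample by name. Another deposited table holds, per the file headers, q-values, p-values, log2 ratios and group FPKM of the authors' own comparisons for genes significant in at least 1 comparison; of the 10 members it lists Il2, Lif and Ifng. It served only as a comparison. An entry emptied in each table was not analysed here.

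FPKM was analysed as log2(FPKM + 1), which understates changes of low genes. The 10340 genes whose FPKM averaged 1 or more across libraries entered 1 fit of all 9 libraries in limma 3.58.1 (R 4.3.3) with the variance trended on the mean, without covariates. P-values were adjusted by Benjamini-Hochberg within each comparison across all of these genes (threshold 0.05), and 95% intervals of differences are unadjusted. The members under 1 FPKM were also read from a fit without the filter. Single members were compared with a two-sided exact permutation test over libraries (scipy 1.17.1). The fit was tested on simulated data.

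Depth was estimated from the steps of low FPKM values: relative depth from 4875 low genes, and absolute depth from 184 of them with an annotated transcript of at least 2000 bases. FPKM of the 7 low members was divided by the value of 1 fragment, and fragments are estimates. Ratios of fragments carry exact binomial 95% intervals, for counting error only. The table marks no strand of counting, so overlapping antisense transcripts could not be told apart.

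RefSeq promoter windows were scanned for both motifs on both strands over the 250 bases before the start. The members, lists and markers were chosen with earlier results of these data known. Named genes are the members, Fosl2, markers of cell types, up to 4 called genes per list and comparison with Control with the smallest adjusted p, called genes within 200 kb, and the 3 most like each tested member; predicted genes, small RNA genes and repeated symbols were left out. A called gene that this rule names is not reported here. Il2rg, Lifr, Osmr, Il6st, Socs1, Gbp2, 4932438A13Rik and the values of Tnf and Lta in Fosl2 Tg were named outside this rule, after their values were seen. Alternatives were other pseudocounts, filters, scalings, weights, subsets of libraries and a replicate block.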

Additional observations from a re-analysis of the deposited data

How the results depend on the processing

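Il2 stayed lower in Fosl2 Tg than in Control under all 10 alternatives (-1.37 to -1.26) and without each library (-1.52 to -1.19), and lower than in the libraries labelled Fosl2 Ko (-0.88 to -0.73, and -1.03 to -0.70 without each library), with limma adjusted p under 0.05 throughout. The counts of members called moved more. In Fosl2 Tg against Control (2) the count was 1 with a filter of 5 FPKM, which leaves Lif out, and 1 with only the 6 libraries compared, and it ranged from 1 to 2 without each library. In the libraries labelled Fosl2 Ko against Control (0) it was 1 without a filter (Ifng), 1 with median-of-ratios scaling, 2 with only the 6 libraries compared, 3 with array weights, 1 with the replicate block (Lif, -0.42, adjusted p = 0.0300), and 0 to 2 without each library. In Fosl2 Tg against libraries labelled Fosl2 Ko (1) it was 2 without a filter (Ifng added), 2 with median-of-ratios scaling (Osm, 0.17, adjusted p = 0.0468), and 1 to 1 without each library.

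All genes called in Fosl2 Tg against Control (2440) numbered 861 with only the 6 libraries compared, 4445 with array weights and 879 to 2529 without each library. In the libraries labelled Fosl2 Ko against Control (461) they numbered 289 with a filter of 5 FPKM, 888 with only the 6 libraries compared, 2834 with array weights and 176 to 1233 without each library, and in Fosl2 Tg against libraries labelled Fosl2 Ko (3943) they numbered 2170 to 4100 without each library. Differences near 0 changed sign: Osm in Fosl2 Tg against Control to -0.0196 with array weights, and Lif in Fosl2 Tg against libraries labelled Fosl2 Ko to 0.0234 with median-of-ratios scaling, 0.0460 with small RNA genes left out, 0.0576 with array weights and -0.0709 to 0.108 without each library. The cause was not tested.

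Same-numbered libraries of different groups had correlations of deviations between -0.126 and 0.0985, so the replicate numbers were not taken as pairs; the replicate block moved no count of all genes by over 1.5 times. No scaling moved the median of all genes by over 0.1 on the log2 scale. Fits without a library left 2 in its group and share the spread of all groups. List counts without each library and under 3 scalings, and the fit without a filter with a library left out, were chosen after seeing the data. Depth limits Il4, Il10, Il13 and Il21, at 0 to 13 fragments per library.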
